A study of Equus caballus with 4 samples.

Results

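The circadian clock was examined through 10 genes on a horse gene expression array: the repressors PER1, PER2, PER3, CRY1 and CRY2, the activators ARNTL and CLOCK, the outputs DBP and TEF, and the feedback factor BHLHE40. Every gene probe whose annotated gene name is exactly one of these symbols was taken. This gave 22 probes of the 43603 gene probes on the array. The cells were equine satellite cells from m. semitendinosus, which are resident stem cells of muscle and form fibres when they fuse, at day 3 of differentiation. Treated cells were pre-incubated for 24 h with 0.125 µM gamma-oryzanol (GO), a mixture of ferulate esters from rice bran, and received 3 mM hydrogen peroxide (H2O2) in the last 1 h. Control cells received no GO. The labels leave unsaid whether H2O2 was added to them, whereas the text of the study describes them as exposed to H2O2, with the solvent DMSO in their medium. The treated and control cells of each replicate were hybridised together on 1 array, treated RNA in red (Cy5) and control RNA in green (Cy3), for 4 arrays on 1 slide. The dyes were not swapped on any array, so an effect of dye and an effect of treatment cannot be told apart.

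The labels call the 4 arrays biological replicates. Per the study's methods the muscle came from young stallions and the best cell line by viability and fusion index was chosen, so the cultures may share 1 line, and the labels mark the control RNA of every array as the first replicate. The p-values therefore measure the spread between these 4 arrays, which may not hold the spread between animals or between controls. On the 4 arrays, 54.9% to 61.3% of gene spots were well above background in green and 56.7% to 61.4% in red, and 0 were saturated. Over all gene spots, the median unnormalised log2 ratio of red over green ran from -0.29 to -0.11 on the arrays. After background correction and loess normalisation, the median over the tested probes alone lay between -0.01 and 0.01. The medians are of different sets, so their difference is not the effect of loess alone. Precision is limited by there being only 4 arrays.

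In the mammalian clock, CLOCK and ARNTL (also called BMAL1) form a dimer that binds E-boxes and drives transcription of the PER and CRY genes, whose proteins return to the nucleus and repress the dimer. The same dimer drives DBP, TEF and BHLHE40. DBP and TEF are related bZIP activators that bind D-boxes, and BHLHE40 (DEC1) is a basic helix-loop-helix repressor that competes at E-boxes and also responds to hypoxia, growth factors and differentiation. The clock runs in skeletal muscle and in cultured myotubes, where ARNTL and CLOCK act on MYOD1. The arrays hold 1 time after treatment, so they give levels and not a rhythm.

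The probe sequences are shown first, because they decide what each value measures. All are 60 bases long and are given 5′ to 3′ in the sense of the transcript, as the array files list them, with positions in the build of the array annotation, EquCab1. Exons, introns and untranslated regions were not assigned from an annotation of that build. The BHLHE40 probe, which had the smallest p-value of the 13 tested, lies on the minus strand at chr16:11193591-11193650.

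BHLHE40: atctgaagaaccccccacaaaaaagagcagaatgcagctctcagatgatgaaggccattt

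The DBP and TEF probes are shown as a pair because the genes are paralogs and the probes lie in corresponding stretches. The DBP probe is on the minus strand of unplaced sequence at chrUn:233797361-233798979, and the TEF probe is on the plus strand at chr28:37764237-37766015. Their annotated spans exceed the probe by 1559 and 1719 bases, so both cross an intron. Capitals mark the bases identical in the best ungapped alignment.

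DBP: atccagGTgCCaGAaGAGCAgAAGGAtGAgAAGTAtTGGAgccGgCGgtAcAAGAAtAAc
TEF: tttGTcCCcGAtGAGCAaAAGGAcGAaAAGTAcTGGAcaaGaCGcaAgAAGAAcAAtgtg

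Of 57 aligned bases, 38 (66.7%) were identical, and the longest identical run was 5 bases. The probes thus differ along their whole length, and cross-hybridisation between them was not tested.

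PER2 has 5 probes that start 1 base apart on the minus strand of chromosome 6, from 24305190-24305249 to 24305194-24305253, so that all 5 share 56 bases. The first 30 bases of the outermost pair are shown, with the bases common to the first 30 of all 5 probes in capitals.

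PER2 A_69_P002680: agaaGGAGCTTCATTGGTTTCTGAGGAAAT
PER2 A_69_P002676: GGAGCTTCATTGGTTTCTGAGGAAATggac

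These 5 probes measure the same stretch of the transcript and count as repeat measurements of 1 gene, not as 5 results. The ARNTL probes lie end to end on the plus strand at chr7:69986856-69986915 and chr7:69986916-69986975 and share no base. Their first 30 bases show that they measure different stretches.

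ARNTL A_69_P000362: ctatgtgtaacttcagacaaagtggaacta
ARNTL A_69_P000361: tattgggctagctgtggatagcttgcatta

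Probes entered the test if either channel exceeded background clearly on each of the 4 arrays. Of the 22 clock probes, 13 were tested, and they stand for 6 genes (PER1, PER2, ARNTL, CLOCK, DBP and BHLHE40). PER3, CRY1, CRY2 and TEF had no tested probe. After loess normalisation and limma with Benjamini-Hochberg adjustment over 24230 probes, 3 of the 13 (23.1%) had an adjusted p under 0.05, where 17.1% of all tested probes did. BHLHE40 and DBP were higher in treated than in control cells, against a background of 9.49% of probes called higher. One of the ARNTL probes was lower, against 7.59% called lower. By gene, 3 of the 6 tested genes had a called probe, in each case the brightest tested probe of the gene. With the brightest tested probe per gene name, 17.1% of 13692 names were called. With 13 probes and 6 genes the counts are too small to read against these shares. The median log2 ratio of the 13 clock probes was -0.01, and that of all tested probes was 0.00. The same sign on all 4 arrays was seen for 5 of the 13 probes and for 43.8% of all tested probes. Between arrays, the median SD of the clock probes was 0.165 in log2 units, and that of all tested probes was 0.0934. Of the 13 clock probes, 5 are the overlapping PER2 probes, and the 0.165 is the SD of 1 of them. The SDs of these PER2 probes were 0.165 to 0.259, and those of the other tested clock probes 0.0423 to 0.185. The clock median is thus no spread over separate genes.

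**Figure D1:**
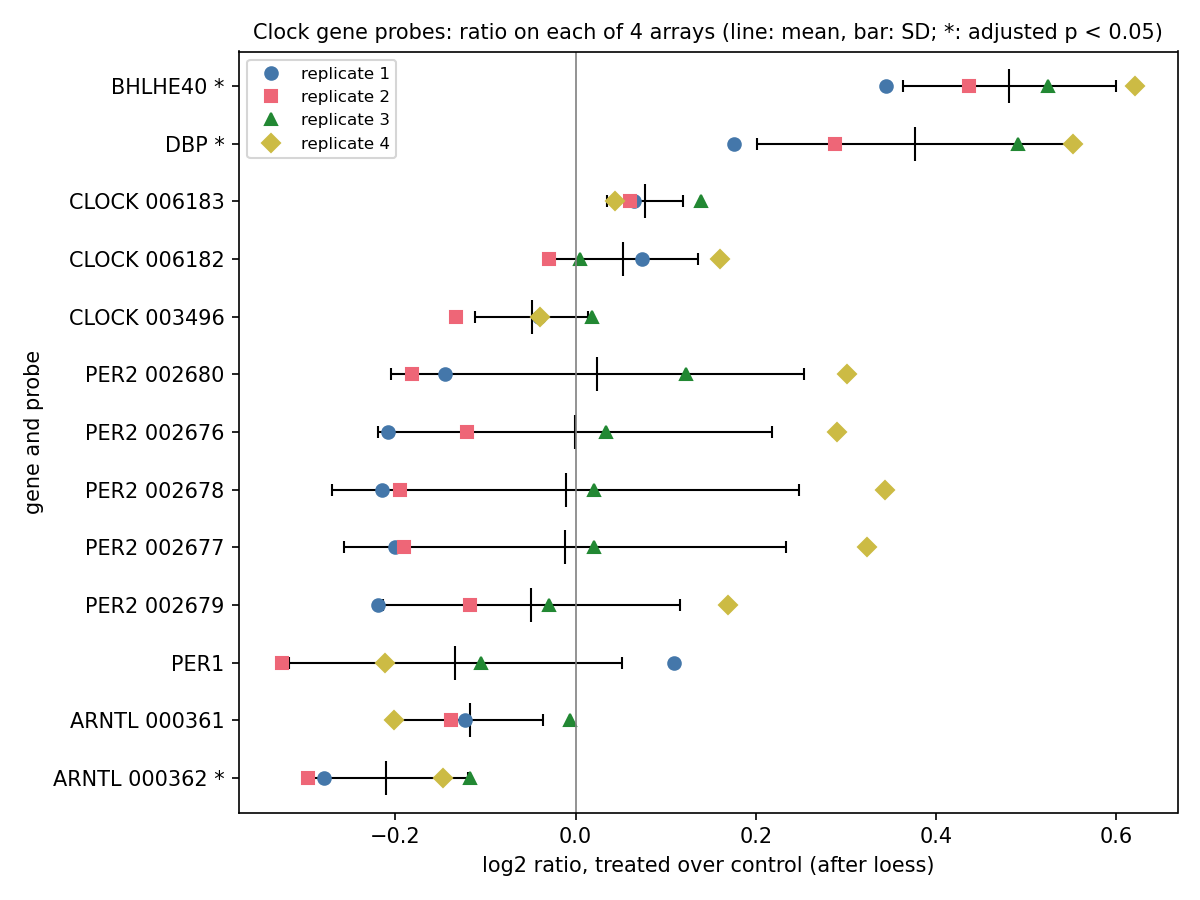
Log2 ratio of treated over control (x axis, after loess) for the 13 tested clock probes (y axis, named by gene and, where a gene has several, the end of the probe name). Points are the 4 arrays, the vertical line is their mean and the bar their SD. BHLHE40 and DBP lie above 0 on every array and both ARNTL probes below 0, while the PER2 probes lie on both sides.

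BHLHE40 had the smallest p-value and, after loess, the highest mean ratio of the 6 tested genes. With Agilent's processed signals and with normexp offset 0 the mean of DBP was higher than that of BHLHE40 (0.67 against 0.59, and 0.59 against 0.54). The control intensity of BHLHE40 was 485, 358, 277 and 333 on the arrays of replicates 1 to 4. Its treated intensity was 686, 549, 455 and 522, each over a local background of 37.0 to 52.5. The treated signal was the brighter one on every array, although the ranges of the channels overlap because replicate 1 was the brightest in both. The unnormalised log2 ratios were 0.50, 0.62, 0.72 and 0.65. After normalisation they were 0.34, 0.44, 0.52 and 0.62, with a mean of 0.48 ± 0.12 (SD, n = 4), which is 1.40-fold, a 95% interval of 0.35 to 0.61 and an adjusted p of 0.0125 by limma. BHLHE40 was thus higher before and after normalisation on all 4 arrays.

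DBP encodes a D-box activator whose mRNA has one of the widest daily swings among clock outputs. Its probe was dim, with control intensities of 141, 131, 113 and 143, treated intensities of 154, 133, 139 and 165, and a local background of 38.0 to 57.0. On replicate 2 the channels were nearly equal before normalisation, with a log2 ratio of 0.02, and on the other arrays the ratio was 0.13, 0.30 and 0.21. The normalised log2 ratios were 0.18, 0.29, 0.49 and 0.55, all above 0. The mean was 0.38 ± 0.18 (SD, n = 4), or 1.298-fold, with a 95% interval of 0.21 to 0.54 and a limma adjusted p of 0.0226. With Agilent's processed signals the mean was 0.67, a setting that changes background correction and dye normalisation together. Changing the background correction alone gave 0.59 with normexp offset 0 and 0.33 with no correction, all in the same direction.

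TEF, the paralog of DBP, was well above background on 1 array in green and on 0 in red. Its intensities were 82.0 to 106 in control and 69.5 to 77.7 in treated cells. No fold change of TEF is given, and the DBP result therefore has no counterpart measured for TEF.

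ARNTL encodes the activator that is required for the rhythm. At probe A_69_P000362 the control intensity was 524, 424, 323 and 365, and the treated intensity 465, 391, 333 and 336. The treated channel was dimmer on replicates 1, 2 and 4, and on replicate 3 it was slightly brighter, with an unnormalised log2 ratio of 0.05. Normalised ratios were -0.28, -0.30, -0.12 and -0.15, and the mean of -0.21 ± 0.09 (SD, n = 4) had a limma adjusted p of 0.0337. This is 0.865 of the control level, with a 95% interval of -0.32 to -0.10 on the log2 scale. The adjacent probe A_69_P000361 gave -0.12, -0.14, -0.01 and -0.20, a mean of -0.12 ± 0.08 (SD, n = 4) that did not pass, with a limma adjusted p of 0.116. Before normalisation A_69_P000361 read -0.03, 0.02, 0.20 and -0.16, so the treated channel was the brighter one on replicates 2 and 3. Both ARNTL probes were below 0 on 4 of 4 arrays after normalisation. Whether they differ from each other was not tested.

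**Figure D2:**
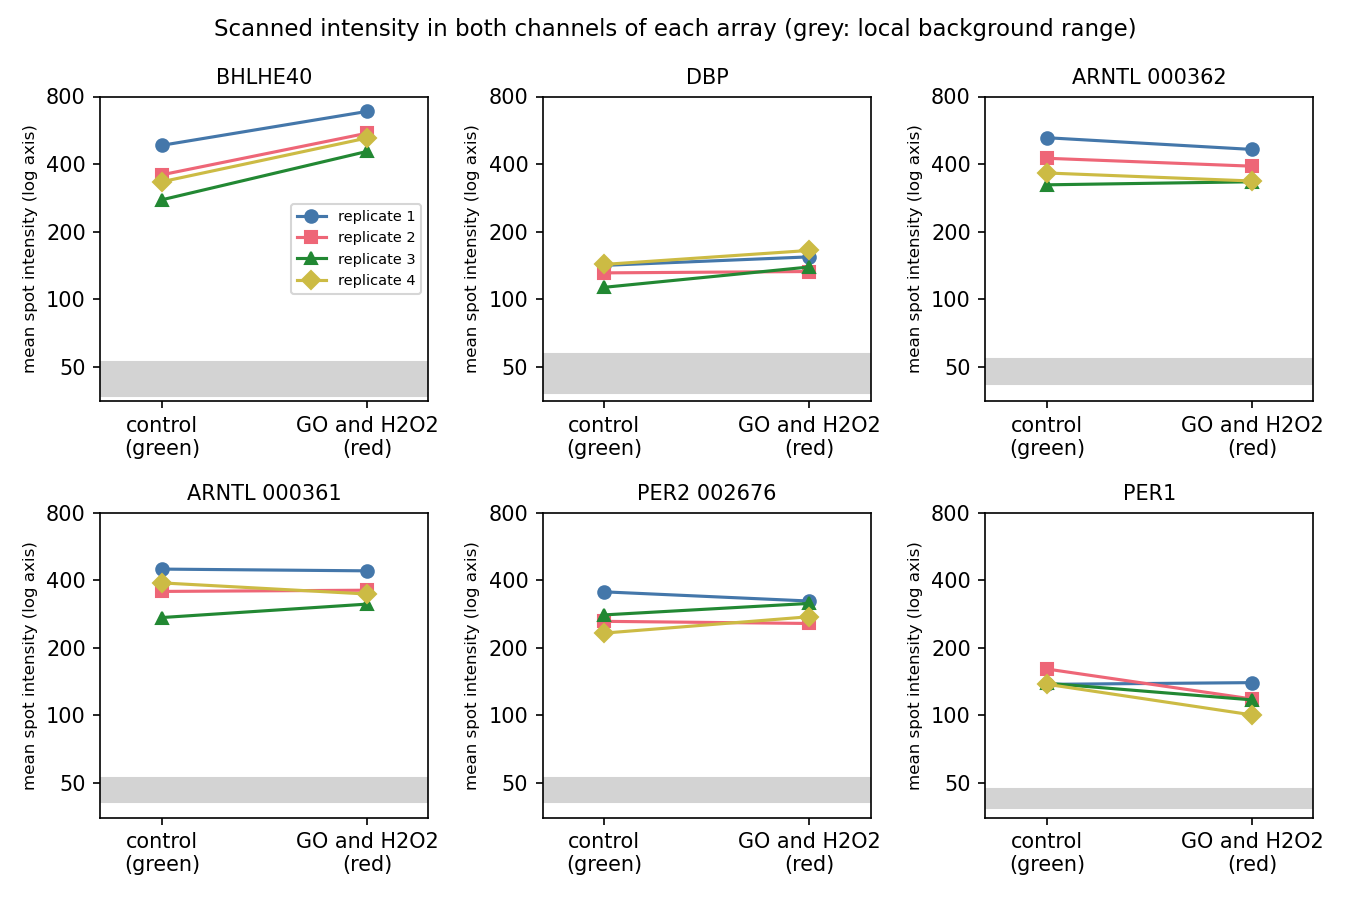
Scanned mean spot intensity (y axis, log scale) in the control and the treated channel (x axis) of each array for 6 probes, with points joined within an array and the range of the local background in grey. BHLHE40 goes up on all 4 arrays and DBP by little on a dim probe, whereas ARNTL and PER2 lines go both ways before normalisation.

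CLOCK, the partner of ARNTL, had 3 tested probes on the plus strand of chromosome 3. Probe A_69_P006183 was higher on 4 of 4 arrays, with log2 ratios of 0.07, 0.06, 0.14 and 0.04 and a mean of 0.08 ± 0.04 (SD, n = 4; limma adjusted p 0.199). The overlapping probe A_69_P006182, which shares 30 bases with it, had a mean of 0.05 ± 0.08 (limma adjusted p 0.441), and probe A_69_P003496 a mean of -0.05 ± 0.06 (limma adjusted p 0.435). None of the 3 passed, and their 95% intervals together ran from -0.15 to 0.17. Intensities of the 3 probes were 114 to 238 in control and 94.6 to 263 in treated cells. The fourth probe, A_69_P006181, was not well above background on any array. It overlaps A_69_P006182 by 29 bases, so that neighbouring stretches of 1 transcript gave a measured and an unmeasured signal.

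PER1 and PER2 encode the repressors that respond most quickly to signals from outside the cell. PER1 (minus strand, chr11:49823851-49823910) had control intensities of 137, 161, 139 and 138 and treated intensities of 140, 118, 117 and 100. Its normalised log2 ratios were 0.11, -0.33, -0.11 and -0.21, so 3 of 4 arrays were lower. The mean of -0.13 ± 0.19 (SD, n = 4) did not pass (limma adjusted p 0.225), with a 95% interval of -0.30 to 0.04.

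For PER2, the mean over the 4 arrays lay between -0.05 and 0.02 at the 5 overlapping probes, and limma adjusted p-values were 0.623 to 0.995. Single arrays lay on both sides of it. Averaged over the 5 probes, the log2 ratio was -0.20 on replicate 1, -0.16 on replicate 2, 0.03 on replicate 3 and 0.29 on replicate 4. All 5 probes were below 0 on replicates 1 and 2 and above 0 on replicate 4, where they ran from 0.17 to 0.34. The SD between the 5 probes within an array was 0.0299 to 0.0682, and the SD of a probe between arrays was 0.165 to 0.259. The first is the spread of repeat measurements on 1 array and the second also holds the spread between cultures, so they are given as a description. For the 5 probes, the 95% intervals of the mean together ran from -0.24 to 0.23, so that differences of this size in either direction lie within the intervals. The sixth PER2 probe, at chr6:24309364-24309423, was not well above background on any array.

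**Figure D3:**
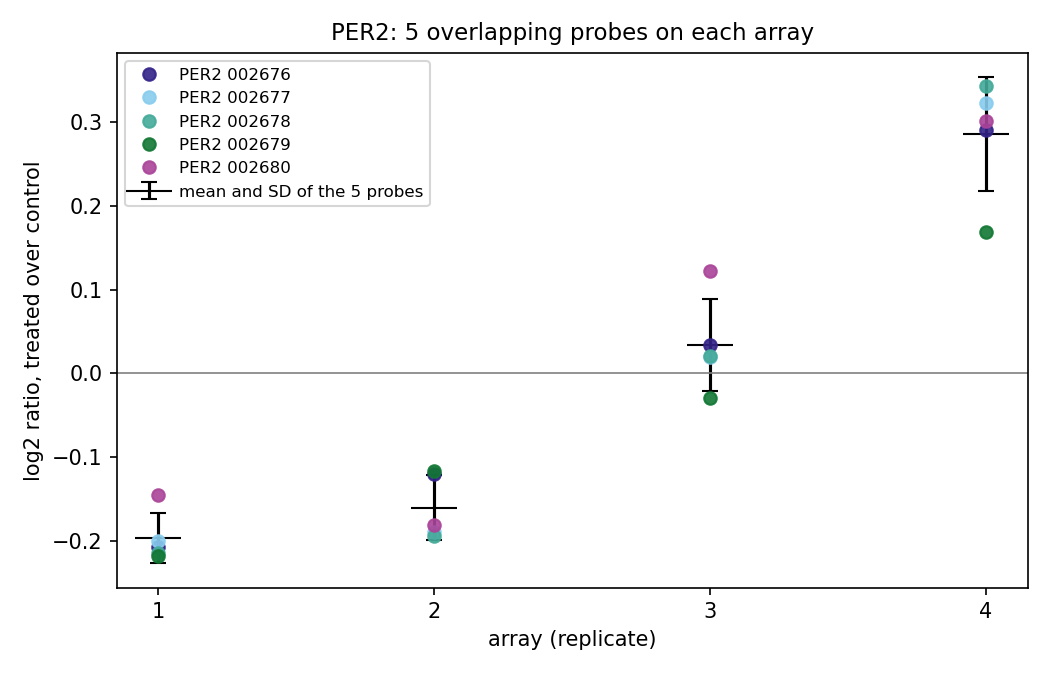
Log2 ratio of treated over control (y axis) on each array (x axis) for the 5 overlapping PER2 probes, shown as coloured points, with their mean and SD in black. The probes lie close together within an array, near -0.2 on replicates 1 and 2 and near 0.3 on replicate 4.

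The signs of PER2 (lower on replicates 1 and 2, higher on replicates 3 and 4) were found at 4 of its 5 overlapping probes and at 6.09% of all tested probes. The pattern was read from the PER2 values themselves, and its probes are repeat measurements. The 6.09% is therefore a description and not a test. The arrays of replicates 3 and 4 also had the highest correlation of all pairs over all tested probes, Pearson r = 0.697, where the lowest pair had 0.174; probes are not independent replicates. Over the 13 clock probes, 5, 3, 9 and 9 were higher on replicates 1 to 4. Of these 13, 5 are the overlapping PER2 probes, so the counts partly restate PER2. The array of replicate 4 also had the lowest share of spots above background. The part of the differences in correlation and in spots above background in the PER2 values was not tested.

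CRY1 and CRY2, the partners of the PER proteins in repression, were at or near background. The 4 CRY1 probes are tiled 20 bases apart on the minus strand at chr28:29829266-29829385. Their intensities were 88.1 to 109.5 in control and 68.3 to 93.8 in treated cells. They were well above background on 0 to 1 arrays in green and 0 to 3 arrays in red. The CRY2 probe (plus strand, chr12:7915996-7916379) was well above background on 2 arrays in green and 0 in red. It read 94.6 to 114 in control and 68.2 to 78.8 in treated cells, and PER3 (minus strand, chr2:41066960-41067019), well above background on 0 arrays, read 77.5 to 106 and 65.7 to 72.3. For these genes and for TEF a difference was not detectable at these signals, which does not show that it was absent.

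Among 29 further clock genes, 28 had a probe and 20 were tested at their brightest probe. Of these, 9 were above 0 in the mean, 1 was called higher and 0 were called lower by limma (2 and 4 at an unadjusted p under 0.05), and the median log2 ratio was -0.03. On the whole array 17.1% of gene names were called, and 36.7% of tested probes had an unadjusted limma p under 0.05. With 20 genes the counts are too small to read against these shares. The gene called was TCAP (titin-cap), a sarcomere protein of the Z-disc whose mRNA follows the clock in muscle. Its log2 ratios of 0.94, 0.18, 0.39 and 0.54 gave a mean of 0.51 ± 0.32 (SD, n = 4; limma adjusted p 0.0327), with replicate 1 the highest. With Agilent's processed signals, 0 of these genes were called.

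The nuclear receptors NR1D1 and NR1D2 (REV-ERB alpha and beta) repress ARNTL. NR1D1 had a mean of 0.08 ± 0.08 (limma adjusted p 0.259) and NR1D2 a mean of 0.14 ± 0.17 (limma adjusted p 0.188), both with 3 of 4 arrays above 0. The NR1D2 value is that of the brightest of 4 tested probes, of which 3 had a mean above 0. NFIL3, the repressor that opposes DBP and TEF at D-boxes, had ratios of -0.12, -0.27, 0.28 and 0.20 and a mean of 0.02 ± 0.26 (limma adjusted p 0.884). RORA, the activator of ARNTL, and BHLHE41 (DEC2), the paralog of BHLHE40, were too dim to test. By role, the tested genes called were 0 of 7 for protein turnover (casein kinases, GSK3B, F-box proteins and USP2), 0 of 3 for other feedback factors and 1 of 6 for outputs, counts too small to read against the 17.1% of all gene names.

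**Figure D4:**
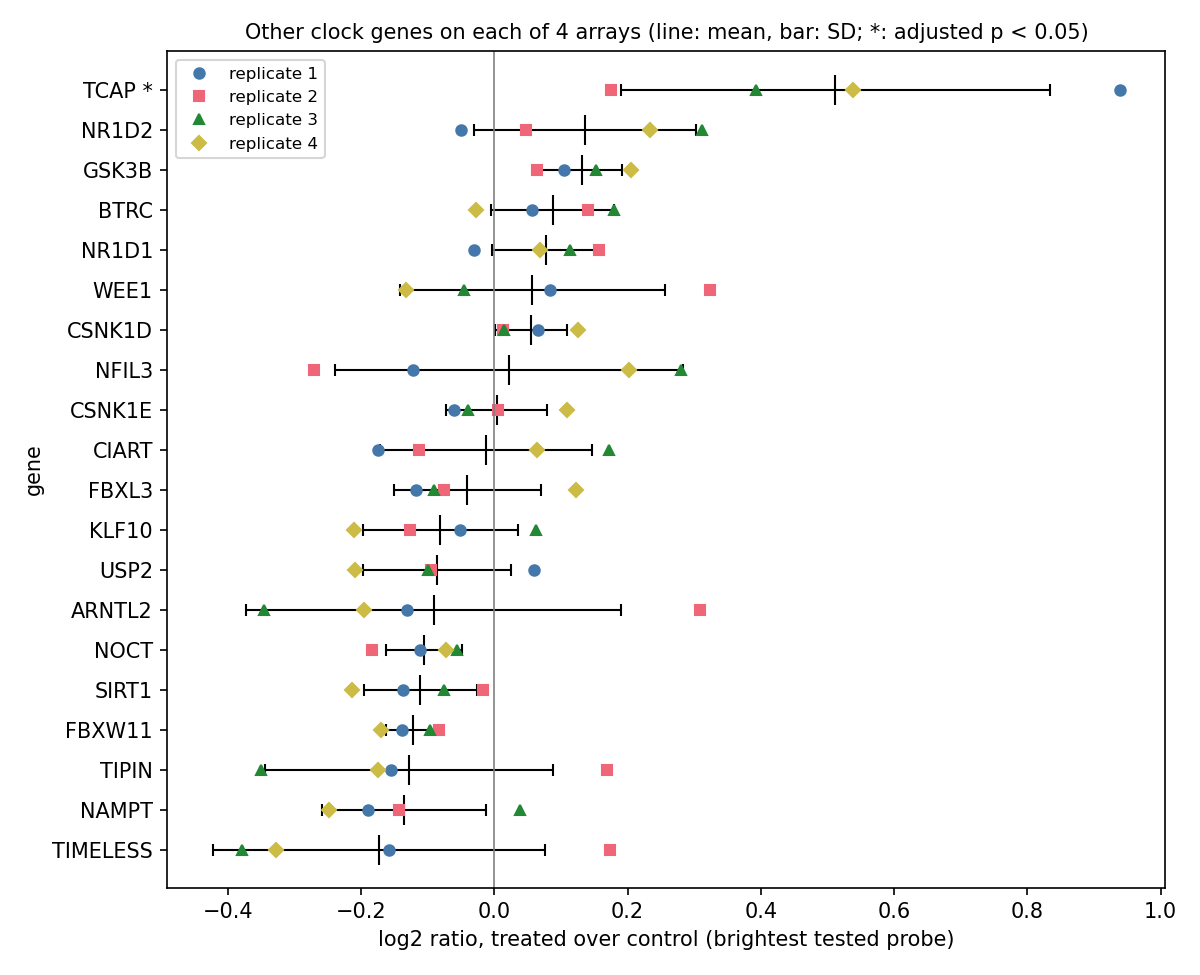
Log2 ratio of treated over control (x axis) on each of the 4 arrays for the 20 tested genes of the further clock list (y axis), each at its brightest tested probe, with the mean as a line and the SD as a bar. TCAP lies above 0 on all 4 arrays, and the means of the other genes run from -0.17 to 0.14.

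Signals that reset the clock were read through their target genes, in short lists of which 17.1% would be called at the share of the whole array. Of 4 tested glucocorticoid targets, 1 was called: FKBP5, a co-chaperone of the glucocorticoid receptor, at 0.36 ± 0.22 (limma adjusted p 0.0335). Its 3 probes disagreed in direction, 2 being higher and 1 lower, and all 3 passed. SGK1 was at 0.08 ± 0.04 (limma adjusted p 0.181) and TSC22D3 at -0.16 ± 0.23 (limma adjusted p 0.225). Of 6 tested CREB and immediate early genes, 1 was called. This was NR4A1, an orphan nuclear receptor, with ratios of 0.41, 0.21, 0.31 and 0.43 and a mean of 0.34 ± 0.10 (limma adjusted p 0.0166). EGR1 was at 0.14 ± 0.46 (limma adjusted p 0.539) and FOS at -0.06 ± 0.19 (limma adjusted p 0.612). Of 7 tested hypoxia targets, a group that BHLHE40 is known to belong to, 0 were called by limma, and 0 had an unadjusted p under 0.05. VEGFA was at 0.10 ± 0.07 (limma adjusted p 0.146), BNIP3 at 0.10 ± 0.13 (limma adjusted p 0.252) and EGLN3 at -0.06 ± 0.07 (limma adjusted p 0.357). The mean was above 0 at 3 of 5 tested VEGFA probes and at 1 of 2 EGLN3 probes.

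The 5 genes whose 4 log2 ratios were nearest to those of BHLHE40, by Euclidean distance among 8541 named genes, were EHHADH (0.125), a peroxisomal enzyme of fatty acid oxidation, NFKBIZ (0.128), a nuclear regulator of NF-kappaB, TLR4 (0.149), the lipopolysaccharide receptor, PRNP (0.180), the prion protein, and MYBPH (0.183), a myosin-binding protein. The order rests on 4 values per gene and on a ranking of many genes, and says nothing of shared control.

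Some cell type markers differed between the channels as well. Of 11 muscle markers, 10 were tested, each read at its brightest tested probe. All 10 were above 0 and 5 were called higher, where 9.49% of all tested probes were. The median log2 ratio of the 10 was 0.20, with a range of 0.02 to 0.44. Among those with several tested probes, MYOG, MYF5 and NCAM1 were above 0 at every probe and MYOD1 at 1 of 2. MYOG was called at 2 of 2 probes and NCAM1 at 1 of 3. The other 5 tested muscle markers, DES among them at 0.02, did not pass. Of 6 tested fibroblast markers, THY1 was called higher (0.28) and LUM lower (-0.43), against 17.1% of probes called either way, with the list at -0.43 to 0.28. All 3 leukocyte markers were tested: PTPRC was called higher (0.53), CD14 lower (-0.17), and CD68 was at 0.00. PTPRC, found by a probe description, was measurable at only 7 of its 15 probes, and its value is that of the brightest. Of these 7 probes, 6 had a mean above 0 and 6 were called in either direction. Endothelial (0 of 4) and adipocyte (0 of 3) markers had no tested probe, and neither did PAX7, the marker of quiescent satellite cells. In these bulk cultures fewer cells of a type and less RNA per cell cannot be told apart, and the part of the muscle markers in the BHLHE40, DBP, ARNTL and TCAP results was not tested.

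Calls at the adjusted threshold were lost in most fits that left out 1 array. Leaving out replicate 1, 3 or 4 in turn gave 0 called clock probes by limma (4, 4 and 3 at an unadjusted p under 0.05), and leaving out replicate 2 gave 2 (BHLHE40 and DBP, with ARNTL at a limma adjusted p of 0.0629). The number of called probes on the whole array moved likewise, from 4137 to 2, 3899, 38 and 0 without replicates 1, 2, 3 and 4. The means kept their direction in each of these fits, from 0.43 to 0.53 for BHLHE40, from 0.32 to 0.44 for DBP and from -0.24 to -0.18 for ARNTL. Without replicate 1 the mean of BHLHE40 rose to 0.53, yet its limma adjusted p was 0.0801. A fit on fewer arrays has fewer degrees of freedom than the full fit. These fits all hold the same number of arrays, and their counts still differed. How far the calls rest on single arrays was not tested.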

How the data were processed

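The deposited files hold, per the file headers, scanned mean intensities and background medians of both channels, made by the authors in Agilent Feature Extraction (10.10.1.1). The deposited log10 ratio is that of the processed red over green signals, and the values of the authors' series matrix equal these. Red mean intensities are of treated and green of control cells. Each array has 43803 gene spots and 1417 control spots.

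Intensities were background corrected (normexp, offset 50) and normalised by loess within each array, control spots having weight 0. Outlier spots (7 to 16 per array) were left out, and spots of a probe were averaged. Of 43603 gene probes, 24230 were well above background on all 4 arrays in red or in green. Their mean log2 ratio was tested against 0 with limma 3.58.1 (lmFit, eBayes, R 4.3.3), two-sided, with Benjamini-Hochberg adjustment and a threshold of 0.05. The fold limit of 1.3 named in the study's methods was not applied to these calls. Of all called probes, 345 reached it. BHLHE40 (1.40-fold) reached it, whereas DBP (1.298-fold) and the called ARNTL probe (0.865 of control) did not. The script was tested on simulated data. Errors are SDs.

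The 10 clock genes, the lists and the alternatives were chosen with earlier results of these data known, and 1 alternative (spot medians) was added after the values were seen. The genes named were all clock probes, further clock genes past the threshold, NR1D1, NR1D2, NFIL3, RORA and BHLHE41, the 3 input genes per list with the smallest p, and the 5 nearest to the clock probe with the smallest p. Marker genes named singly (THY1, LUM, the leukocyte markers, PAX7) were chosen after their values were seen. Symbols are those of the array; 12 list genes were found by an older symbol or a probe description. Other genes were read at their brightest tested probe. Sequences are those of the array files.

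Alternatives were Agilent's processed signals, the series matrix, no background correction, normexp offset 0, median centring, a running median over signal, a filter on both channels, no filter, the methods' t-test, limma with trend and robust, no replicate block, spot medians, the mean over a gene's probes for the further clock genes, and leaving out each replicate.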

Additional observations from a re-analysis of the deposited data

How the results depend on the processing

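BHLHE40, DBP and ARNTL kept their direction under 12 alternatives each, beside those that left out a replicate, with means of 0.45 to 0.59, 0.33 to 0.67 and -0.27 to -0.20. Of the 12, 5 change the filter or the test and leave the mean as it was, and the series matrix equals Agilent's processed signals, so 6 gave another mean. BHLHE40 and DBP passed the threshold in 10 of the 12 and ARNTL in 9. All 3 were lost with median centring in place of loess (limma adjusted p 0.571, 0.596 and 0.781) and with the methods' t-test (adjusted p 0.0790, 0.128 and 0.120, a test run across all probes as an alternative to limma). The cause was not tested. Median centring called 12 probes on the whole array, 0 clock probes and 0 further clock genes, and the methods' t-test called 5, 0 and 0. At an unadjusted p under 0.05 these were 2 clock probes and 1 further clock gene with median centring, and 4 and 3 with the methods' t-test. Each array pairs a treated and a control culture. With no replicate block, that is with the channels fitted as separate samples without the pairing within an array, 594 probes, 2 clock probes and 0 further clock genes were called, and ARNTL had a limma adjusted p of 0.111. For the further clock genes, Agilent's processed signals and the series matrix gave 0 (4 at an unadjusted p under 0.05) and normexp with offset 0 gave 2. Leaving out 1 replicate gave 0 to 3899 called probes, 0 to 2 clock probes and 0 to 4 further clock genes. The unadjusted p was under 0.05 for 36.7% of tested probes, and the smallest adjusted p over all probes was 0.00454. Signal near background limited DBP and left PER3, CRY1, CRY2 and TEF unmeasured.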
